A study of Mus musculus with 27 samples.

Results

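Ybx2, Ldha, Acot7 and Spag4 are the 4 genes with the largest positive slopes among the 566 genes listed as trans genes, those away from the deletion, in the authors' deposited table. Each slope comes from a regression of testis expression on genotype in mice from which CRISPR-Cas9 removed a TAD boundary, a border between blocks of chromosome (topologically associating domains) within which contacts are frequent. The genes were chosen on these slopes, and for roles in late spermatogenesis ascribed to them, which were not tested here. Slopes, t statistics, p-values and ranks are therefore given as a description, with no test. The regressions used total RNA from mouse testis in 9 libraries of 3 genotypes: 3 libraries each of wild type, B396.BOS heterozygous KO and B396.BOS homozygous KO. The labels give no age, strain or other allele, and B396.BOS is the name that all KO samples carry. Contacts of the same 4 genes were measured by Capture Hi-C, which counts ligated DNA ends from enriched regions, in 3 wild-type and 3 homozygous testis libraries, with no heterozygous libraries. Nothing in the labels says which libraries came from separate animals or litters, so p-values measure the spread between these libraries.

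Spermatogenesis runs from dividing spermatogonia through meiotic spermatocytes to haploid spermatids, which elongate, replace their histones with protamines and build a tail. Transcription stops before elongation ends, so many messages are made early in round spermatids or in spermatocytes, stored with RNA-binding proteins, and translated later. Ybx2 encodes MSY2, a germ cell Y-box protein that binds the Y box in DNA and packages stored mRNA. Ldha encodes the muscle-type subunit of lactate dehydrogenase, which interconverts pyruvate and lactate; germ cells also carry the sperm-specific subunit made by Ldhc. Acot7 encodes a cytosolic thioesterase that splits acyl-CoA into free fatty acid and CoA. Spag4, also called Sun4, encodes a SUN-domain protein of the spermatid nuclear envelope that takes part in shaping the sperm head. Ybx2 and Spag4 are largely germ cell genes, whereas Ldha and Acot7 are also used in many other tissues. The tables hold no value per library or per cell type, so whether these 4 messages came from spermatids in these samples was not tested.

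The promoter windows of the 4 genes are shown so that the start regions of genes grouped by slope can be compared letter by letter. All 4 were matched by symbol in a RefSeq table of GRCm38.p6 promoters, which runs from 250 bases before to 50 bases after each annotated start; Ybx2 and Ldha have 2 starts each there and Acot7 and Spag4 have 1. Capitals mark TGACG, a part of the cAMP response element (CRE) that the spermatid factor CREM binds, and ATTGG, the core of the Y box and of the inverted CCAAT box, each searched on both strands. All windows are on the plus strand, written 5′ to 3′. They lie at chr11:69935649-69935948 (Ybx2, first start), chr7:46845554-46845853 (Ldha, first start), chr4:152185358-152185657 (Acot7) and chr2:156064963-156065262 (Spag4).

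Ybx2: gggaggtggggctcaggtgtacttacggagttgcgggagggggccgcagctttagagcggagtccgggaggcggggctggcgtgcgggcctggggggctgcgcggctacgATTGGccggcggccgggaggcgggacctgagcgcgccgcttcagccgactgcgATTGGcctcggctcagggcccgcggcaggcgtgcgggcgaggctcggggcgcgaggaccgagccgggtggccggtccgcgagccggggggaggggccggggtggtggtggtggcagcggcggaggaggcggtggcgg

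Ldha: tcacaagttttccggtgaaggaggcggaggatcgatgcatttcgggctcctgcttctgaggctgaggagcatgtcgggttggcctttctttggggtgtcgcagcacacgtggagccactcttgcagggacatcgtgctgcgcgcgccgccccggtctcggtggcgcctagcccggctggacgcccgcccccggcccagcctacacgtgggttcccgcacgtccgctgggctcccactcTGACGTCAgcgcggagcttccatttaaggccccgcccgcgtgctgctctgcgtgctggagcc

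Acot7: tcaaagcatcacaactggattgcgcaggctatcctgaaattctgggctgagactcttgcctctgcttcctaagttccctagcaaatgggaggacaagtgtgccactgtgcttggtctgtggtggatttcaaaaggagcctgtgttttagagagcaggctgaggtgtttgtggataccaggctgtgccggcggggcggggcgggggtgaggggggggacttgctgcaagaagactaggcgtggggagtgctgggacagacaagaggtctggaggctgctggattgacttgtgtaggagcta

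Spag4: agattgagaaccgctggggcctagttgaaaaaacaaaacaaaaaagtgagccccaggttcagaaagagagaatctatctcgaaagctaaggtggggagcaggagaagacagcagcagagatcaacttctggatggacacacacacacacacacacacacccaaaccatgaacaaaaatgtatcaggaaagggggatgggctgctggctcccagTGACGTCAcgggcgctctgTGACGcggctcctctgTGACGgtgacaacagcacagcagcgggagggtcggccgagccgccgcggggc

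With the start site at 0, the Spag4 window held 4 matches to TGACG. Those at -37 and -34 overlap on opposite strands and form the palindrome TGACGTCA, the full CRE, from -37 to -30; the others begin at -18 and -2. Of 32851 promoter windows in the table, 20.8% hold TGACG at least once, and of 548 windows of listed genes, 26.6% hold it. These 548 windows cover 426 of the 566 listed genes, the 4 members included. Of all windows, 0.231% hold TGACG 4 times or more. That cutoff is the Spag4 count itself, in which the palindrome counts on both strands. The first Ldha window also held the full palindrome, from -12 to -5, and its second window, chr7:46846832-46847131, held 1 TGACG at -143. TGACGTCA, searched for only after these sequences were seen, occurs in 588 of the 32851 windows, or 1.79%, and in 2.55% of those of listed genes. Neither Ybx2 window nor the Acot7 window held TGACG. The first Ybx2 window held ATTGG 2 times on the plus strand, beginning at -140 and -87, a motif found in 37.4% of all windows, and the windows of the other 3 genes had none; the share among windows of listed genes was 40.7%. GGGCGG, the GC box, was found 4 times in the second Ybx2 window, 3 times in the first Ldha window and 2 times in the Acot7 window, against 35.7% of all windows and 52.4% of those of listed genes with at least 1; adjacent matches in the second Ybx2 window and in the Acot7 window share bases. TATAAA was in none of the 6 windows and in 13.6% of all. GC content was 78.0% and 75.3% in the Ybx2 windows, 67.3% and 56.7% in those of Ldha, 56.0% for Acot7 and 55.3% for Spag4, where the median window has 52.7%. So none of these motifs was found in the searched windows of all 4 genes. The second Ybx2 window, the Acot7 window and both Ldha windows lie inside the span that the gene table gives these genes. Starts of Acot7 and Ldha further out were not searched. A match describes the letters in the window and is no measure of binding.

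**Figure D1:**
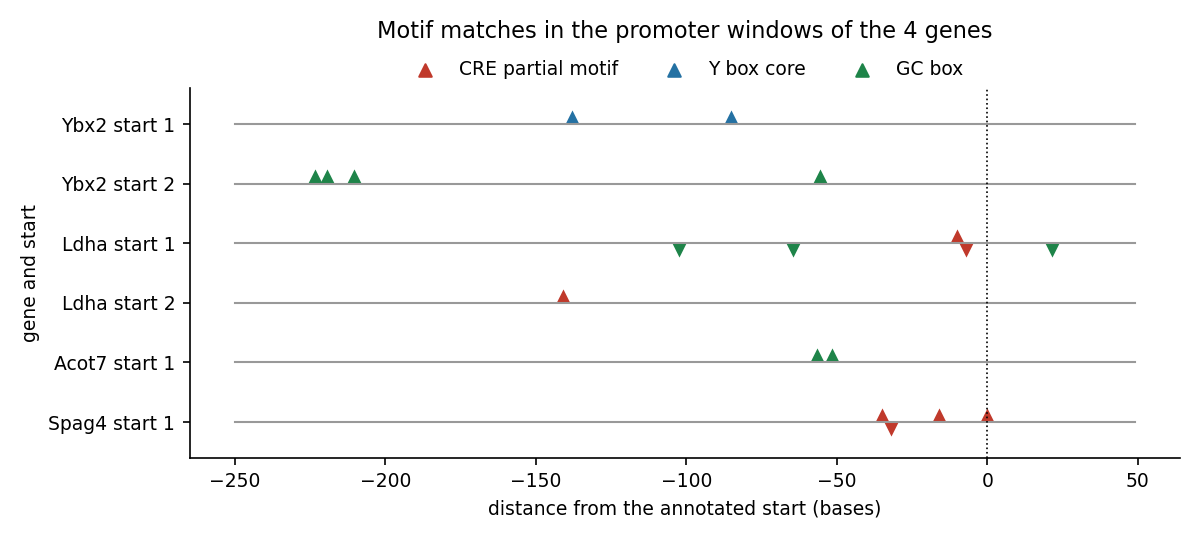
Matches to 3 motifs in the promoter windows of the 4 genes; the horizontal axis is the distance from the annotated start in bases, each line is 1 annotated start, upward triangles are matches on the plus strand and downward ones on the minus strand. CRE partial motifs lie between -37 and the start in Spag4 and between -12 and the start in the first Ldha window, and of the 6 windows only the first Ybx2 window has the Y box core.

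The slope is the change in expression for 1 step of the authors' genotype coding. Neither the coding nor the unit of expression is stated, so the slopes carry no unit, and levels or slopes of different genes cannot be put on a per-length scale here. In the authors' deposited table the slope was 167 for Ybx2, with a t statistic of 4.04, a p of 0.00493 and a false discovery rate (FDR) of 0.631. Dividing each slope by its t statistic gives its standard error, which was 41.3 for Ybx2, and with the 7 residual degrees of freedom that the p-values in the authors' deposited table carry, the 95% interval runs from 69.2 to 265. Ybx2 thus heads the table by slope, at 106 times the median positive slope of 1.58.

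For Ldha the authors' deposited table gives a slope of 86.3 (t statistic 3.65, p 0.00813, FDR 0.631), which implies a standard error of 23.6 and a 95% interval from 30.5 to 142. For Acot7 the authors' deposited table gives 65.5 (t statistic 5.01, p 0.00155, FDR 0.607), with an implied standard error of 13.1 and an interval from 34.6 to 96.5. Acot7 has the largest t statistic of the 4. The slope of Spag4 in the authors' deposited table is 41.7 (t statistic 3.65, p 0.00814, FDR 0.631), with an implied standard error of 11.4 and an interval from 14.7 to 68.7. In the order Ybx2, Ldha, Acot7, Spag4, the intervals of neighbouring genes overlap, and the order was not tested because the genes share libraries. The lower ends above 0 follow from the table's own limit, since it lists only genes with a p up to 0.00998.

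None of the 4 reached an FDR of 0.05, nor did any of the 566 listed genes in the authors' deposited table, although 61 have a p up to 0.001. The FDR values correspond to 35970 tests, of which 1.57% are listed in either direction and 1.5% with a positive slope; the members were picked from within these, so nothing is read from their being listed. The FDR of 0.631 that Ybx2, Ldha and Spag4 carry in the authors' deposited table is shared by 446 genes. The share of the variance over libraries that went with genotype (r squared, computed from the t statistic) was 0.70 for Ybx2, 0.656 for Ldha, 0.782 for Acot7 and 0.656 for Spag4. These shares restate the t statistics, and the table's limit on p keeps them high for every listed gene. For Acot2, listed with a t statistic of 3.57, the share is 0.646.

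**Figure D2:**
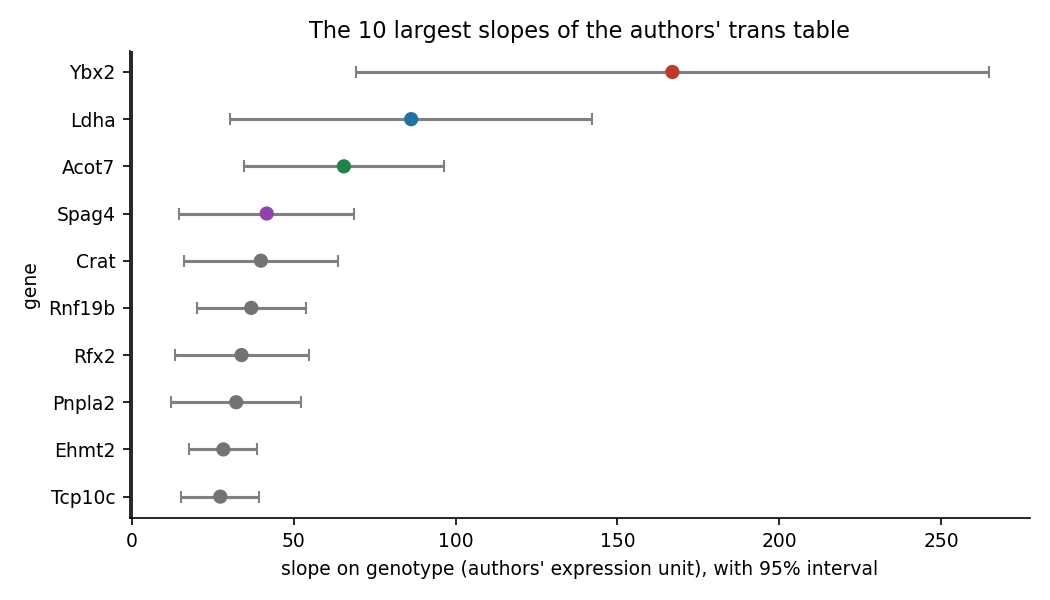
Slopes of the 10 genes with the largest slopes in the authors' trans table (horizontal axis, authors' expression unit, which is not stated), with 95% intervals computed from slope, t statistic and 7 degrees of freedom. Ybx2 lies at 167, the other 3 colored genes between 41.7 and 86.3, and the 6 genes in gray at 39.9 and below.

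Ranked by slope, the 4 genes are 1 to 4 of 566, but by t statistic Acot7 is only at rank 90, Ybx2 at 248, Ldha at 423 and Spag4 at 424. By standard error they are again 1 to 4. Against the median t statistic of genes with a positive slope (3.97), those of Ybx2 and Acot7 were 1.02 and 1.26 times as large and those of Ldha and Spag4 0.920 and 0.919 times, while their standard errors were 117, 37.1, 66.9 and 32.3 times the median of the table. The standard error was 24.8% of the slope for Ybx2, 27.4% for Ldha, 20.0% for Acot7 and 27.4% for Spag4. Across the 538 genes with a positive slope, slope and t statistic were almost unrelated (Pearson r of -0.0487 with log2 slope, Spearman rho -0.0523). This is over listed genes only, since the table's limit on p holds the t statistics of positive slopes at 3.50 or more. Over the listed genes t spanned a factor of 3.92 and slopes a factor of 14938, so a standard error computed as slope divided by t had to follow the slope, and that the large slopes have large standard errors is no separate finding. The correlations are over genes of the same 9 libraries, which are not independent. No expression level is given, so relative changes of the 4 genes could not be computed, and the part of abundance in their slopes was not tested.

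**Figure D3:**
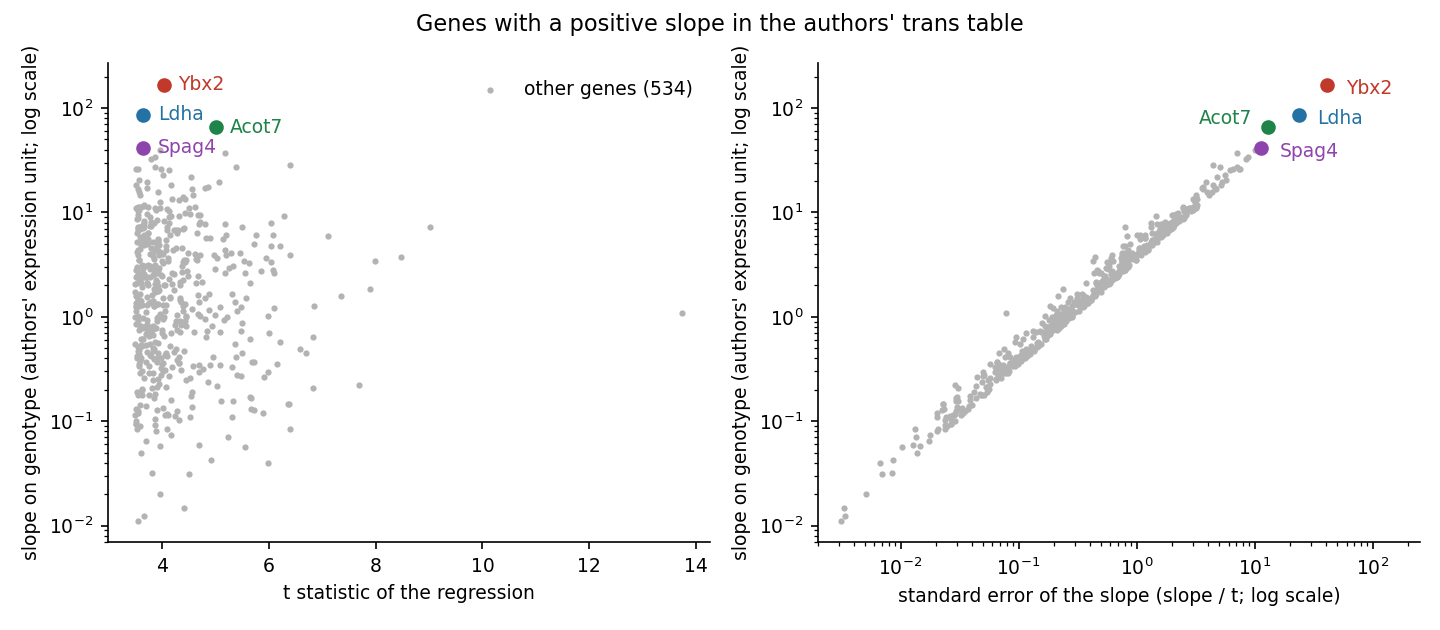
Slopes of the 538 genes with a positive slope in the authors' trans table (vertical axis, log scale, unit not stated) against the t statistic (left) and against the standard error (right, log scale); each point is 1 gene and the 4 genes are colored. On the left the 4 genes lie at the top but at t statistics between 3.65 and 5.01 in a range up to 13.7, and on the right they are at the upper end of the band that the points form, which the limit on p and the computation of the standard error fix.

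Just outside the choice, the 6 next slopes in the authors' deposited table are 39.9 for Crat (carnitine acetyltransferase), 36.9 for Rnf19b (a RING-type ubiquitin ligase), 33.9 for Rfx2 (a transcription factor required in spermatids), 32.3 for Pnpla2 (adipose triglyceride lipase), 28.3 for Ehmt2 (the histone methyltransferase G9a) and 27.4 for Tcp10c. The step from Spag4 to Crat, 41.7 to 39.9, is far smaller than the standard error of either, 11.4 and 10.1. In the authors' deposited table Ehmt2 has a t statistic of 6.41 at rank 14, higher than those of all 4 members. The trans genes can also be set beside Dmrtb1, a male germ cell transcription factor and the gene with the largest slope in the authors' deposited table of genes near the deletion: its slope of 81.6 lies between those of Ldha and Acot7, but its t statistic of 2.90 (p 0.0229) would not have reached the limit of the trans table.

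Genes that work with the 4 were taken from lists of 81 genes in all. Of these, 3 are in the authors' deposited table of trans genes, all with positive slopes. From 16 genes of mRNA storage and translational control, among them the Y-box relatives Ybx1 and Ybx3 and the poly(A)-binding protein Pabpc1, 0 are listed. Of 25 genes of glycolysis and lactate transport, 1 is in the authors' deposited table, the phosphofructokinase gene Pfkm, at 10.9 (t statistic 4.10, p 0.00455, FDR 0.631). Ldhb and Ldhc, which encode the other lactate dehydrogenase subunits, are not listed. Among 20 genes of acyl-CoA hydrolysis and activation, the authors' deposited table lists 1, the mitochondrial thioesterase Acot2, at 0.336 (t statistic 3.57, p 0.00907, FDR 0.631). Of 20 genes of the nuclear envelope, the manchette (the microtubule skirt that shapes the spermatid head) and the axoneme, 1 is in the authors' deposited table: Sun1, at 4.75 (t statistic 3.90, p 0.00587, FDR 0.631). Sun3 and Sun5, further SUN-domain genes known from spermatids, are not listed. A gene that is not listed either had a p above the limit or was not tested, and which of these holds is not given, so no median over a list can be formed.

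The mix of germ cell stages in a testis sets the level of stage-specific messages in bulk RNA, where more cells of a stage and more RNA per cell cannot be told apart. Markers of 4 germ cell stages were therefore looked up. Of 74 such genes, 2 are in the authors' deposited table, both with positive slopes: Ccna1, the cyclin of male meiosis, at 15.6 (t statistic 3.92, p 0.00573, FDR 0.631), and Catsper2, a subunit of the sperm calcium channel, at 18.4 (t statistic 4.17, p 0.00418, FDR 0.631). By stage, the table lists 0 of 13 spermatogonial, 1 of 18 spermatocyte, 1 of 22 round spermatid and 0 of 21 elongating spermatid markers, of which 20 have a symbol in the RefSeq gene table. The abundant late messages Prm1, Prm2, Tnp1, Tnp2, Odf1 and Akap4 are among those not listed. Messages can be made in an earlier stage and stored, so the lists do not separate stages strictly. They also do not hold every germ cell gene. Of 37 markers of Sertoli, Leydig and peritubular cells and of macrophages, endothelium and blood, 0 are listed. These counts are read against the 1.57% of all tests that are listed; at that share, 2 of 74 or 3 of 81 genes is no result about the lists. Levels of these markers in each library are not in the tables, so the part of stage composition in the slopes of Ybx2, Ldha, Acot7 and Spag4 was not tested.

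None of the 4 genes lies near the deletion. By the RefSeq gene table for GRCm38.p6, Ybx2 spans 69935805 to 69941604 on chromosome 11 and Ldha 46842274 to 46855627 on chromosome 7. Acot7 spans 152178100 to 152271855 on chromosome 4, the chromosome of the deletion, 41798 kb from the edge of the region captured around it. Spag4 spans 156065188 to 156069501 on chromosome 2, 38565 kb from a second captured region. Ldha overlaps the long non-coding RNA gene Gm39011, and 3 pseudogenes named after it lie on chromosomes 2, 4 and 17; Ldhc lies 5636 bases away. The RNA libraries were made with a kit that keeps the strand, but how reads of overlapping or near-identical genes were counted is not stated, so the value for Ldha is less certain on this point. The other 3 genes overlap no annotated gene.

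Windows of 250 kb to each side of the genes were also searched for other listed genes. The authors' deposited table lists 1 in the Ybx2 window (Tmem256, slope 3.42, t statistic 4.12), 1 in the Ldha window (Sergef, slope 0.646, t statistic 6.83) and 1 in the Acot7 window (Kcnab2, slope 1.20, t statistic 6.10), and 0 in the Spag4 window. All 3 slopes are positive, as are 538 of the 566 listed. Such a neighbor is present in 22.1% of 21804 windows around protein-coding genes. Ybx2 has 37 protein-coding genes within or across its window, Ldha 15, Acot7 19 and Spag4 18. These 3 neighbors are the listed ones among 46, 29 and 23 genes in the windows, so their values follow from the table's limit on p and are a description.

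Contacts of the 4 gene windows were compared between genotypes because the choice of genes did not use them. The captured region of chromosome 4 runs from 102820001 to 110380000, and 3 of its bins, 107710001 to 107740000, were left out as deleted or partly deleted in homozygotes. The libraries held 5669898 to 7794641 contacts, of which 459024 to 770393 joined this region to the rest of the genome. Replicate 2 stood apart in both genotypes: its ratio of contacts leaving the chromosome 4 region to those leaving a captured region on chromosome 2 was 0.435 in wild type and 0.435 in homozygotes, against 0.313 to 0.337 in the other 4 libraries. Genotypes were compared by edgeR's quasi-likelihood test over all gene windows with a mean count of at least 5, with Benjamini-Hochberg adjustment, and all 4 members passed that minimum in all 3 measures.

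Wild-type replicates 1 to 3 gave 597, 991 and 729 contacts between the Acot7 window and the chromosome 4 region, and the homozygous ones, in the same order, gave 606, 1406 and 805. Per 100000 contacts leaving the region, wild type stood at 127, 149 and 127, homozygotes at 132, 183 and 134, and the means were 134 ± 12.6 against 150 ± 28.5 (SD, n = 3 each). Homozygous replicate 2 was the highest of the 6, the genotypes overlapped, and the log2 change was 0.16 (95% interval -0.04 to 0.35, edgeR adjusted p 0.998). Without homozygous replicate 2 it was -0.00716, and without replicate 2 of both genotypes 0.0648. Acot7, the member on chromosome 4, had more such contacts than the other 3 genes.

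Between the Ybx2 window and the chromosome 4 region, wild-type libraries gave 120, 165 and 111 contacts, and homozygous libraries 83, 173 and 114. At 23.2 ± 3.41 and 19.8 ± 2.30 per 100000 (SD, n = 3 each), the homozygous mean was lower, with overlapping libraries and a log2 change of -0.21 (95% interval -0.45 to 0.04, edgeR adjusted p 0.998). It was -0.0665 with flanks of 500 kb, -0.132 without wild-type replicate 1 and -0.321 without wild-type replicate 3. For Ldha, wild-type libraries gave 88, 155 and 143 contacts, homozygous libraries 104, 171 and 140, or 22.3 ± 3.17 and 22.7 ± 0.578 per 100000 (SD, n = 3 each). Its log2 change was 0.01, with a 95% interval from -0.22 to 0.24. For Spag4, 99, 147 and 149 contacts came from wild type, 112, 168 and 127 from homozygotes, or 23.0 ± 2.54 and 22.5 ± 1.71 per 100000 (SD, n = 3 each), a log2 change of -0.05 (95% interval -0.29 to 0.18). In edgeR's test the adjusted p was 0.998 for both. As ratios of homozygous to wild type, the 4 intervals together run from 0.734 to 1.27.

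Over all 21075 windows tested against the chromosome 4 region, 0 passed an adjusted p of 0.05 in edgeR (0%), 966 had an unadjusted p under 0.05, and DESeq2 also called 0. Genotypes did not overlap in 8.69% of the windows, and overlapped for all 4 genes.

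The chromosome 2 region, from 114820001 to 117500000, has no deleted bin and served as a comparison. Between it and the Ybx2 window, wild-type libraries gave 104, 118 and 129 contacts, homozygous libraries 79, 90 and 106. Per 100000 contacts leaving that region, wild type stood at 6.92, 7.70 and 7.34, homozygotes at 5.47, 5.08 and 5.96, and the means were 7.32 ± 0.389 against 5.50 ± 0.437 (SD, n = 3 each). The genotypes did not overlap, homozygotes being lower, with a log2 change of -0.38 (95% interval -0.62 to -0.13, unadjusted p 0.00262), but it did not pass adjustment over all windows (edgeR adjusted p 0.289). Genotypes did not overlap in 10.5% of the 21138 windows tested there, and 76 windows (0.36%) were called by edgeR, a number that fell to 0 with DESeq2, to 0 without replicate 2 of both genotypes and to 1 without wild-type replicate 3.

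The other 3 genes overlapped between genotypes in their contacts with the chromosome 2 region. Ldha was at 7.90 ± 0.272 in wild type and 6.76 ± 1.23 in homozygotes (contacts per 100000, SD, n = 3 each; log2 change -0.21, 95% interval -0.44 to 0.03), with homozygous replicate 1 the highest of the 6 libraries and homozygous replicates 2 and 3 the lowest. Its change was -0.348 without homozygous replicate 1 and -0.128 without homozygous replicate 3. Acot7 was at 5.68 ± 0.994 and 5.14 ± 1.28 (SD, n = 3 each; log2 change -0.09, 95% interval -0.36 to 0.18). Spag4, which lies on chromosome 2, was at 26.1 ± 1.54 and 25.7 ± 2.02 (SD, n = 3 each; log2 change 0.01, 95% interval -0.19 to 0.22). Adjusted p-values from edgeR were 0.884, 0.983 and 0.996. For Spag4 the mean level was slightly lower in homozygotes, whereas the log2 change was slightly positive. Levels were scaled by contacts leaving the region, and log2 changes by edgeR's own library scaling.

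Contacts within each gene's own window were counted per 100000 contacts spanning up to 500 kb outside the captured regions. Ybx2 was at 39.2 ± 1.41 in wild type and 39.4 ± 5.42 in homozygotes, Ldha at 35.8 ± 2.31 and 34.5 ± 1.67, Acot7 at 50.0 ± 9.65 and 48.5 ± 10.7, and Spag4 at 41.7 ± 2.78 and 38.7 ± 5.47 (SD, n = 3 each). For Acot7, replicate 2 was the highest of each genotype, at 60.5 in wild type and 60.2 in homozygotes against 39.3 to 48.0 in the other 4 libraries. Log2 changes were 0.04, -0.03, -0.01 and -0.08 in that order, with 95% intervals that together reach from -0.31 to 0.28 and an edgeR adjusted p of 1.00 for each. Genotypes overlapped for all 4 genes and did not overlap in 6.15% of the 21090 windows, where edgeR called 0 (0%, with 212 at an unadjusted p under 0.05) and DESeq2 also 0. For this measure replicate 2 deviated in the same way in both genotypes. The fit above ignores this, and only 1.01% of its windows had an unadjusted p under 0.05. That is fewer than this cutoff gives when nothing differs, so its intervals may be too wide. With the replicate number as a block, 1240 windows had an unadjusted p under 0.05 and edgeR called 29. The log2 changes of the 4 genes were then 0.04, -0.03, -0.02 and -0.08, and their lowest edgeR adjusted p was 0.996.

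**Figure D4:**
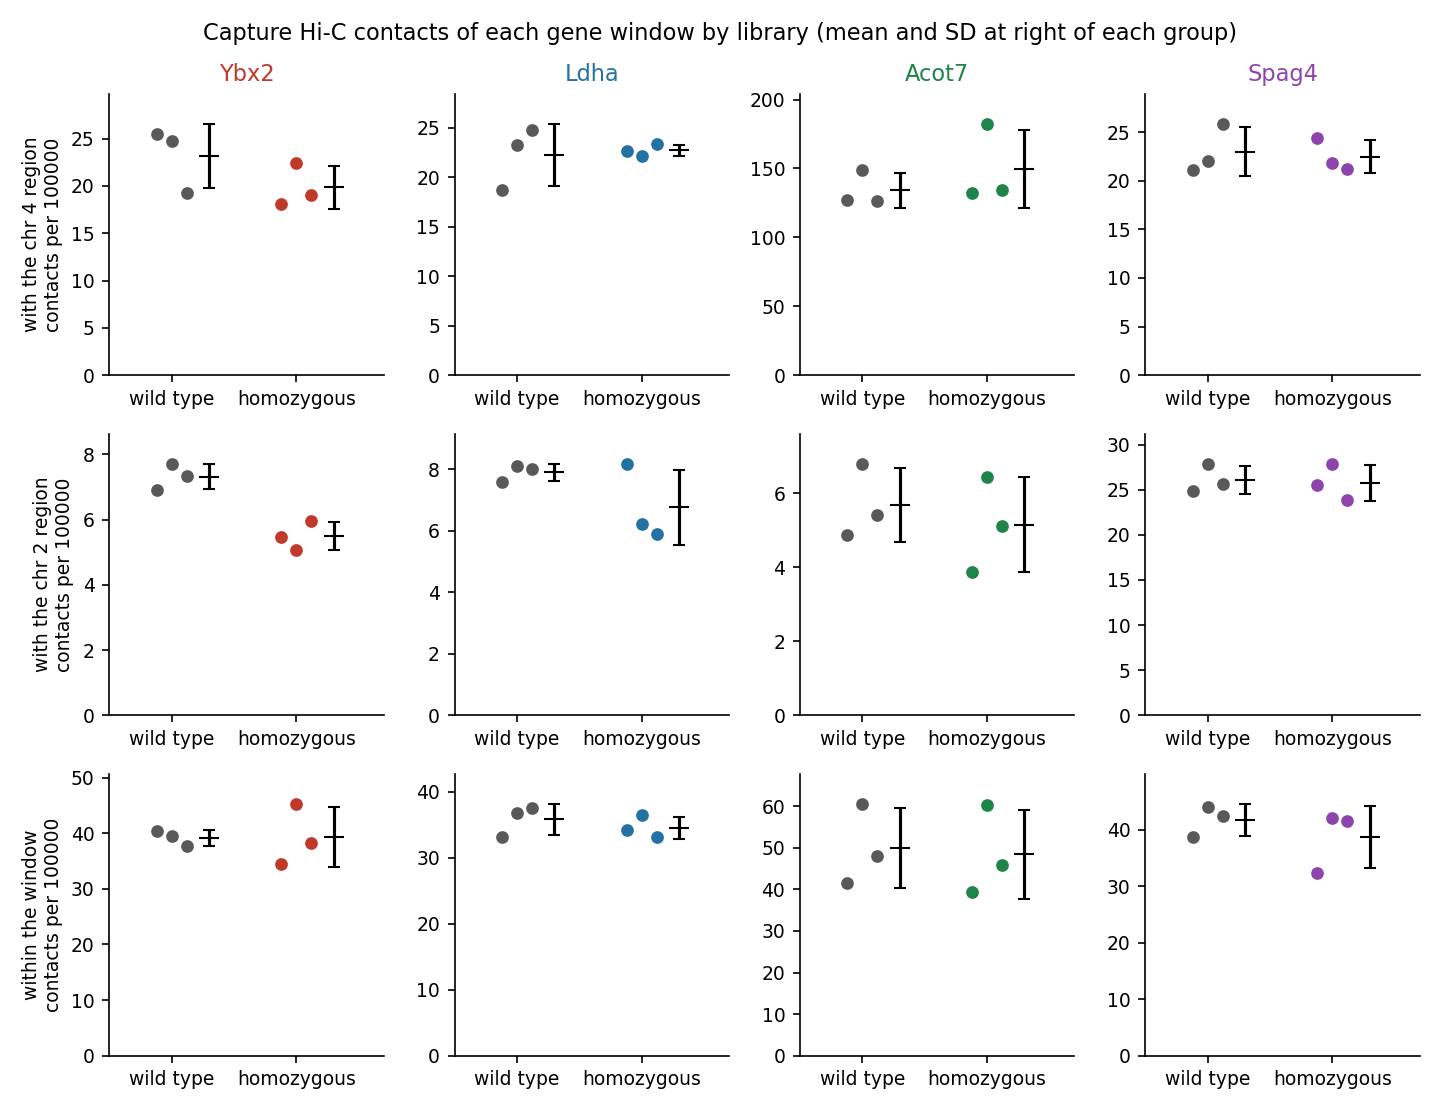
Contacts of the 4 gene windows (columns) with the chromosome 4 captured region, with the chromosome 2 captured region and within the window (rows), per 100000 contacts as defined in the text; points are libraries in the order of replicates 1 to 3, and the bar beside each group is its mean and SD. Genotypes overlap in every panel except Ybx2 with the chromosome 2 region, where homozygotes lie at 5.08 to 5.96 and wild type at 6.92 to 7.70.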

How the data were processed

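RNA-seq entered only through the authors' 2 deposited Matrix eQTL tables, which give a t statistic and a slope per gene (here called scores) and, as deposited, a p-value and its FDR; the submitters' processing notes name STAR and mm10 for these libraries, and the unit of expression and the genotype coding are not given in the sources used here. Standard errors, intervals and r squared were computed from the slope, the t statistic and 7 degrees of freedom. Capture Hi-C contact counts per pair of 10 kb bins were deposited by the authors without normalization, and their aligner and filters are not given in the sources used here; each matrix was assigned to the library whose genotype and replicate number its name carries. Captured regions were the longest run of bins reaching 20% of the 99th percentile of bin totals, bridging gaps under 100 kb. Each of 21887 protein-coding genes, with 250 kb on each side, was a window; 83 windows touching a captured region were left out. Windows overlap, so calls are not independent. Counts were fitted with edgeR 4.0.16 (TMM, quasi-likelihood), with DESeq2 1.42.0 as an alternative, and the script was tested on simulated data. The ChIP-seq samples were not analysed here. The named genes were the 4 members, the 6 next slopes, every list gene that a table holds, and Dmrtb1; Gm39011, Ldhc and the listed neighbors were named by position, and list genes that are not listed as examples, after their absence was seen. Members and lists were chosen with earlier results of these data known. For contacts within windows, deviations from the genotype mean of same-numbered libraries correlated at 0.40, 0.65 and 0.16 over 20963 windows. Wild-type replicate 3 with homozygous replicate 1 (0.32) and wild-type replicate 1 with homozygous replicate 3 (0.25) passed the 0.16 of replicate 3. Replicate 2 of each genotype correlated negatively with replicates 1 and 3 of the other. Deviations from a mean cancel out within a genotype, so the positive value for replicate 2 largely brings these negative ones with it. Replicate 2 thus deviated together in both genotypes, and pairing by number was not shown for replicate 3. The values printed are from the fit without the block, with the blocked count beside them. For the chromosome 4 and 2 regions not every correlation of same-numbered libraries passed 0.1.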

Additional observations from a re-analysis of the deposited data

How the results depend on the processing

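Over 13 alternatives for each of the 12 member contact results, 0 of 156 values passed an adjusted p of 0.05 (lowest 0.164, for Ybx2 with the chromosome 2 region), 135 kept their sign and 21 changed it, the largest of these reaching 0.125. The Ybx2 change with the chromosome 2 region stayed between -0.46 and -0.29. With 500 kb flanks, Spag4 with the chromosome 2 region was -0.00905, and Ybx2 and Acot7 within the window -0.0475 and 0.0144; with 100 kb flanks Acot7 within the window was 0.0730. Without replicate 2 of both genotypes, an alternative chosen after the data were seen, Spag4 with the chromosome 2 region was -0.0165 and Ybx2 within its window -0.0655. With single libraries left out, changes that crossed 0 ran, with the chromosome 4 region, from -0.0743 to 0.0894 for Ldha, from -0.00716 to 0.235 for Acot7 and from -0.103 to 0.0405 for Spag4; with the chromosome 2 region, from -0.276 to 0.0616 for Acot7 and from -0.0416 to 0.0595 for Spag4; and within windows from -0.0566 to 0.0991 for Ybx2, from -0.0685 to 0.0217 for Ldha, from -0.181 to 0.125 for Acot7 and from -0.131 to 0.0106 for Spag4. The cause was not tested. Windows called for the chromosome 2 region numbered 76, and 0 with DESeq2 (384 at an unadjusted p under 0.05), 19 with 100 kb flanks, 101 with the replicate block, 1 to 93 when single libraries were left out (1 without wild-type replicate 3 and 1 without homozygous replicate 2, 24 without wild-type replicate 1) and 0 without replicate 2 of both genotypes (1037 at an unadjusted p under 0.05). For contacts within windows, 0 became 29 with the replicate block and 21 without replicate 2 of both genotypes; for the chromosome 4 region it stayed 0 under all 13. The replicate block changed no call among the 4 genes. At a p up to 0.005 the authors' deposited table holds 1 germ cell list gene (0 at 0.001) and 1 pathway list gene (0 at 0.001), where the full table holds 2 and 3; somatic list genes stayed at 0. Leaving out the predicted genes could not move the 4 genes from ranks 1 to 4 by slope, because they were chosen as the head of the full table. Median contacts per window, 100 with the chromosome 4 region and 102 with the chromosome 2 region, limit what can be seen.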
